A study of Rattus norvegicus with 28 samples.

Results

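The genes described here are 143 genes whose transcripts were at least 1.5-fold higher in WT INS-1 cells after 1 h of exendin-4 (Ex-4) and also after 1 h of forskolin (FSK), once the best known immediate early families had been set aside. They were taken from 10275 genes whose mean over all 28 libraries reached 1 TPM, the length-scaled share of a transcript among all transcripts of a library. A gene entered when the mean of log2(TPM + 1) exceeded that of untreated WT cells (WT CON) by at least 0.585 on the log2 scale after both agents. Symbols of the families Fos, Jun, Nr4a, Egr, Ier, Dusp, Sik, Rgs, Pde, Per, Crem and Irs were left out, together with Id1 to Id4 and Atf3. With the 31 genes of those families that met the same thresholds, 174 genes met them, or 1.69% of the genes tested. The members were chosen by these WT levels at CON and 1 h, so those levels are given as a description, and so is every difference that contains those libraries. The tests concern the Med14 S983A cells and the later WT libraries against each other.

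INS-1 cells, of rat insulinoma origin, produce and release insulin. They were WT or had the S983A change knocked into Med14, part of Mediator, the complex that connects transcription factors with RNA polymerase II. All cells were washed into serum-free medium, then left untreated (CON) or given 10 nM Ex-4, a peptide that activates the GLP-1 receptor, or 10 µM FSK, which activates adenylyl cyclase directly, for 1, 8 or 16 h, which made 14 groups of 2 libraries. The knock-in was made with CRISPR in sorted single cells, and the study describes independently generated mutant lines without saying which line gave which library, so genotype and clone cannot be told apart. The labels do not say that the libraries of a group came from separate cultures, so the p-values measure only the spread between these libraries.

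Both agents raise cyclic AMP, which activates protein kinase A. This kinase phosphorylates CREB, a transcription factor that binds the cAMP response element (CRE) in promoters, and CREB with its coactivators switches on target genes within minutes, without new protein synthesis. Such immediate early genes encode transcription factors, feedback inhibitors of signalling, secreted factors and short-lived regulatory RNAs, and their transcripts usually decay within a few hours. In beta cells the pathway is known for supporting insulin secretion and cell survival.

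The libraries held 42183630 to 91794163 fragments, the highest in a Med14 S983A library after 8 h of FSK (replicate 2) and the next 56755944. External spike-in RNA (ERCC) made up 0.671% to 1.03% of fragments. Of 10 beta cell markers, 8 had a value, and their summed level was 45363 to 84519 TPM, led by Ins1 at 33716 to 67834 TPM, while Mafa and G6pc2 had no value. Among alpha cell markers, Gcg, the glucagon gene, moved with treatment and genotype. It had 165 to 169 TPM in WT CON, 178 to 184 after 1 h of each agent and 1225 to 1345 after 8 h of FSK in WT, and in Med14 S983A 6.09 to 6.56 TPM at CON, 6.19 to 6.98 after 1 h and 102 to 110.3 after 8 h of FSK, while Irx2 was at 0 in every library. Markers of delta, PP, acinar, ductal, mesenchymal, endothelial and immune cells summed to at most 2.97 TPM per list. The part of the Gcg change in the values below was not tested.

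Among the members were 3 microRNA loci, and the mature sequences matter because a microRNA finds its targets through its seed, bases 2 to 8, given here in capitals. Mir132 and Mir212 lie in tandem on the same strand of rn6 chromosome 10, at 62014995 to 62015095 and 62014702 to 62014812, with 183 bases between them. Their 3p arms share the seed, and the arms have the same base at 17 of 22 positions. The third locus, Mir22, carries an unrelated seed. RefSeq (GRCr8) gives the mature 3p arms, 5′ to 3′, as follows.
rno-miR-132-3p: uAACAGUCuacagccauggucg
rno-miR-212-3p: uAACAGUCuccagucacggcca
rno-miR-22-3p: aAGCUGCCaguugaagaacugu
On GRCr8 these arms are at chr10:60522091-60522112, chr10:60521811-60521832 and chr10:60805387-60805408, all on the plus strand.

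The promoters of the members were searched for the palindromic CRE TGACGTCA and for its half-site TGACG, on both strands, from 250 bases before to 50 bases after the annotated start. RefSeq windows (GRCr8) matched 107 of the 143 members by symbol or, for 4 of them, by accession. The full CRE was in 14 of the 107 (13.1%), beside 3.31% of 8098 other tested genes and 2% of 27457 symbols in the table. The half-site, which the full CRE contains, was in 55 members (51.4%), beside 33.9% and 23%. Median GC content was 62% for the members and 61.7% for the other tested genes. A match is a description of letters, not of binding. Stretches of 88 bases are shown for 7 members that the results return to, on the strand of the gene, with the CRE in capitals.
Maff: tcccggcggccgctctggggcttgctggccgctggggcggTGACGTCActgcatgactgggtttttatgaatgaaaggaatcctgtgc
Btg2: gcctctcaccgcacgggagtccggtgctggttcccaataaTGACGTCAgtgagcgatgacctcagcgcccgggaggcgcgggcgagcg
Ppargc1a: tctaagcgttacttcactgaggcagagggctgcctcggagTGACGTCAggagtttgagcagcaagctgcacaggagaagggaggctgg
Ppp1r15a: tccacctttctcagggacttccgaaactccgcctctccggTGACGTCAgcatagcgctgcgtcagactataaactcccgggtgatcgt
Plk2: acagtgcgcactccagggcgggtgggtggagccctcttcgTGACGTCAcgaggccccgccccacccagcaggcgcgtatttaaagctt
Cartpt: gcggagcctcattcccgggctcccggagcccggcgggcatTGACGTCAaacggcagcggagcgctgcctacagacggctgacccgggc
Gpr6: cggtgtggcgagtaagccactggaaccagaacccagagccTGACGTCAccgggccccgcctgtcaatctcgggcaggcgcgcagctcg
They lie at chr7:112792696-112792783 (plus strand), chr13:48087844-48087931 (minus), chr14:63634087-63634174 (plus), chr1:105139615-105139702 (minus), chr2:43702430-43702517 (plus), chr2:32991330-32991417 (minus) and chr20:46075297-46075384 (minus) of GRCr8. The first base of the CRE is 51 bases before the start in Maff, 201 in Btg2, 181 in Ppargc1a, 66 in Ppp1r15a and in Plk2, 142 in Cartpt and 93 in Gpr6.

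The median level of the members in WT CON was 10.5 TPM (0.083 to 223), beside 30.0 TPM over all genes tested. WT CON is part of the rule, which favours genes that are low there, so this is a description only. Over all 28 libraries the medians were 28.5 and 27.3 TPM. Median exon length was 2024 and 2142 bases. In WT the median difference from CON on the log2 scale was 1.14 after 1 h of Ex-4 (0.586 to 3.42) and 1.75 after 1 h of FSK (0.592 to 5.64). Just inside the threshold were Wnt4, with differences of 0.586 and 0.592, Cdkn1b, with 0.591 and 0.850, and Stc1, with 0.667 and 0.593. Just outside were Nptx1, with 0.582 and 1.08, Lyar, with 0.581 and 0.819, and Mustn1, with 0.578 and 1.53. In 4 members, Ccn2, Cxcl1, Npas4 and Uncx, the mean over the 20 libraries of other times was under 1 TPM, so these entered only through their 1 h libraries.

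Most members also rose within 1 h in the Med14 S983A cells, whose libraries entered the choice of members only through the mean over all 28 libraries and the transcript taken for each symbol. After 1 h of Ex-4, 115 of the 143 members (80.4%) were higher than in Med14 S983A CON and 0 lower, at a limma adjusted p under 0.05 and a fold above 1.5, and 141 lay above 0. Of all genes tested, 2.03% were higher and 1% lower. After 1 h of FSK, 131 members (91.6%) were higher and 0 lower, beside 3.19% and 7.2% of all genes. The median log2 change of the members was 1.04 for Ex-4, where the median over all genes was −0.04, and 1.77 for FSK, where it was −0.11. The 6 comparisons of treated Med14 S983A cells with CON share the same CON libraries.

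**Figure D1:**
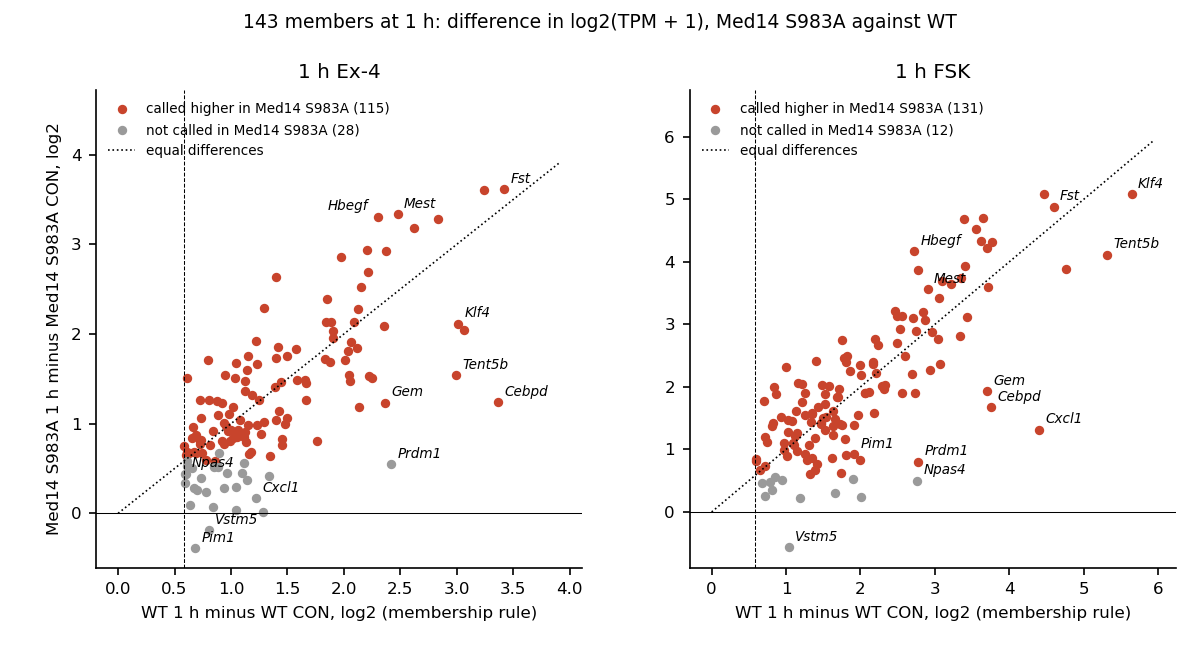
Difference in log2(TPM + 1) from CON after 1 h of Ex-4 (left) and FSK (right), in WT (horizontal axis, the values that chose the members) and in Med14 S983A (vertical axis). Each point is 1 of the 143 members, red where limma called it higher in Med14 S983A (115 and 131), and the dashed line is the threshold of 0.585. Cebpd, Prdm1 and Cxcl1 lie below the dotted line of equal differences and Hbegf and Mest above it.

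The 12 members not called after 1 h of FSK in Med14 S983A were Npas4, Sertad2, Ccnd1, Zfp703, Kdr, Vstm5, Arl4a, Fzd1, Nrarp, Dffb, Cdkn1b and Ppp1r17, of which Sertad2, Vstm5, Arl4a, Nrarp and Dffb were named after their values were seen. Npas4, an activity-dependent transcription factor of neurons, had 0.578 and 0.531 TPM in WT CON and 9.6 and 9.45 after 1 h of FSK. In Med14 S983A it had 0.488 and 0.384 TPM at CON and 1.15 and 0.924 after 1 h of FSK, a log2 difference of 0.50 (SE 0.095, adjusted p = 8.57e-05). The 1 h FSK libraries of the mutant were below those of WT, which is given without a test because those WT libraries chose the members. After Ex-4, Pim1, a survival kinase, was the member with the lowest value in Med14 S983A. It went from 19.6 and 23 TPM to 15.9 and 16, a difference of −0.39 (SE 0.086, adjusted p = 0.00128) that lay under the fold limit, whereas after 1 h of FSK it rose to 43 and 39.4, by 0.92 (SE 0.086, adjusted p = 1.76e-09).

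Transcription regulators made up the largest group, with 32 members. In Med14 S983A, 27 of them were higher after 1 h of Ex-4 and 29 after 1 h of FSK. After 8 h, 7 were higher and 1 lower with Ex-4 and 21 and 3 with FSK. After 16 h the numbers were 8 and 1, and 16 and 3. Of all genes tested, 2.03% were higher and 1% lower after 1 h of Ex-4, and 3.19% and 7.2% after 1 h of FSK. At 8 h these shares were 3.21% and 3.09% with Ex-4 and 11.6% and 34.5% with FSK. At 16 h they were 4.73% and 7.15%, and 12.2% and 21.1%. The same shares apply to the groups below. The group thus went from 27 higher calls at 1 h to 7 at 8 h with Ex-4, and from 29 to 21 with FSK. Its median log2 difference from CON fell from 1.16 at 1 h to 0.35 and 0.27 with Ex-4, and from 1.76 to 1.03 and 0.55 with FSK.

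Klf4 (NM_053713, rn6 chromosome 5, 72283311 to 72287669), a zinc finger factor known from pluripotency and differentiation, showed a brief pulse. In WT its level was 6.58 and 5.82 TPM at CON, 55.9 and 58.1 after 1 h, 8.58 and 9.38 after 8 h and 5.69 and 5.75 after 16 h of Ex-4. With FSK the WT libraries had 357 and 359 after 1 h, 32.5 and 32 after 8 h and 14.7 and 16.1 after 16 h of FSK. The FSK pulse was the largest WT difference of any member at 1 h, 5.64 on the log2 scale. In Med14 S983A the values were 9.84 and 10.9 TPM at CON, 43.2 and 53.7 after 1 h, 9.23 and 9.9 after 8 h and 8.37 and 8.04 after 16 h of Ex-4, and with FSK 374 and 391 after 1 h, 52.4 and 47.8 after 8 h and 28.2 and 25.2 after 16 h of FSK. Klf4 rose by 5.08 (SE 0.079, adjusted p = 1.08e-25) after 1 h of FSK there and was still 2.17 (SE 0.079, adjusted p = 1.37e-18) above CON at 8 h, but after 8 h of Ex-4 it differed from CON by only −0.10 (SE 0.079, adjusted p = 0.28). Btg2 (NM_017259, rn6 chromosome 13, 50913185 to 50916944), an antiproliferative transcriptional cofactor whose promoter stretch is shown above, pulsed in the same way from a high level. In Med14 S983A it had 82.8 and 85.5 TPM at CON, 1096 and 1037 after 1 h, 73 and 69.9 after 8 h and 56 and 57.1 after 16 h of FSK. The rise at 1 h was 3.65 (SE 0.046, adjusted p = 2.45e-27), and its 8 h and 16 h libraries lay below those at CON, at −0.23 and −0.56, neither over the fold limit.

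Nfil3, a basic leucine zipper repressor, and Maff, a small Maf factor with a CRE near its start, kept part of their rise. Nfil3 in Med14 S983A had 7.05 and 6.76 TPM at CON, 72.3 and 79.9 after 1 h, 22.9 and 22.8 after 8 h and 32.3 and 29 after 16 h of Ex-4, and its rise of 3.29 (SE 0.052, adjusted p = 7.21e-25) at 1 h was followed by 1.59 at 8 h and 2.00 at 16 h, all called. Maff had 1.99 and 2.29 TPM at CON, 75.6 and 86.2 after 1 h, 45.6 and 46.5 after 8 h and 37.3 and 35 after 16 h of FSK, and rose by 4.70 (SE 0.087, adjusted p = 4.38e-24), 3.91 and 3.56 at the successive times. For both genes every treated library stood above both CON libraries. Csrnp1, a nuclear protein induced by growth and stress signals, went the same way with FSK, at 4.34, 2.74 and 1.87, but with Ex-4 it was called at 1 h alone, at 1.91 (SE 0.07, adjusted p = 3.43e-17).

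Cebpd (NM_013154, rn6 chromosome 11, 89008008 to 89009146), a CCAAT/enhancer binding protein of acute responses, differed in size between the genotypes. In WT it had 7.62 and 6.7 TPM at CON, 82.3 and 83.5 after 1 h, 30.7 and 30.8 after 8 h and 10.9 and 10.2 after 16 h of Ex-4, and in Med14 S983A 7.48 and 7.98 TPM at CON, 17.8 and 21.6 after 1 h, 11.1 and 10.1 after 8 h and 8 and 9.53 after 16 h of Ex-4. At CON the libraries overlapped, but after 1 h of Ex-4 both mutant libraries lay below both WT libraries, with a log2 difference of −2.02 that is given without a test because it holds WT 1 h libraries. At 8 h of FSK, where WT had 122 and 119 TPM and Med14 S983A 29.1 and 27, the difference between genotypes was −2.07 (SE 0.078, adjusted p = 1.31e-17). For its relative Cebpb the mutant libraries were the higher ones after 1 h of FSK, with 38.4 and 41.3 TPM in WT and 64.7 and 65.5 in Med14 S983A. Prdm1, a transcriptional repressor of lymphocyte maturation, was under 1 TPM at CON in both genotypes. Its WT values were 0.595 and 0.558 TPM at CON, 9.92 and 9.69 after 1 h, 11.9 and 10.5 after 8 h and 3.51 and 3.31 after 16 h of FSK, and those of Med14 S983A 0.133 and 0.161 TPM at CON, 1.02 and 0.988 after 1 h, 0.828 and 0.888 after 8 h and 0.865 and 0.859 after 16 h of FSK. The mutant rise was 0.81 (SE 0.082, adjusted p = 7.48e-09) at 1 h and 0.70 at 8 h, and the genotype difference at 8 h of FSK was −2.71 (SE 0.082, adjusted p = 1.14e-19).

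Neurod2, a neuronal basic helix-loop-helix factor, Barhl1, a homeobox factor, and Atoh7 went below CON at 8 or 16 h of FSK in Med14 S983A. Neurod2 had there 23.1 and 26.4 TPM at CON, 167 and 178 after 1 h, 9.98 and 8.96 after 8 h and 8.85 and 9.38 after 16 h of FSK. It rose by 2.75 (SE 0.081, adjusted p = 9.72e-20) at 1 h, and against CON it fell by 1.298 (SE 0.081, adjusted p = 9.77e-14) at 8 h and dropped by 1.35 at 16 h. Barhl1 had 18.8 and 21.2 TPM at CON, 81.2 and 87.8 after 1 h, 12.8 and 11.1 after 8 h and 3.17 and 3.45 after 16 h of FSK, a rise of 2.03 (SE 0.074, adjusted p = 1.25e-17) followed by −2.28 (SE 0.074, adjusted p = 2.77e-19) at 16 h. Atoh7, a retinal factor, behaved alike at a lower level, with 2.37 (SE 0.11, adjusted p = 1.84e-15) at 1 h and −0.94 (SE 0.11, adjusted p = 2.08e-08) at 16 h of FSK. In these 3 genes both libraries at 16 h of FSK lay below both CON libraries. WT cells had 30.5 and 29.4 TPM of Barhl1 at CON and 12.8 and 10.3 after 16 h of FSK.

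A few transcription regulators were higher late than at 1 h. Runx1, best known from blood cell formation, had 2.43 and 2.26 TPM at CON, 4.2 and 6.07 after 1 h, 28 and 28.2 after 8 h and 35 and 35.2 after 16 h of FSK in Med14 S983A, rising by 0.86 (SE 0.10, adjusted p = 1.49e-07) at 1 h and 3.43 (SE 0.10, adjusted p = 6.32e-20) at 16 h. Ppargc1a, the PGC-1α coactivator of mitochondrial genes and a textbook CREB target, had 1.89 and 2.27 TPM at CON, 8.8 and 15.9 after 1 h, 28.8 and 25.2 after 8 h and 23.5 and 24.7 after 16 h of FSK. Its rise was 2.07 (SE 0.17, adjusted p = 1.01e-10) at 1 h and 3.19 at 8 h. The libraries at 1 h of FSK were far apart, and the 8 h libraries stood above both. Zfp703, a transcriptional corepressor, was called at no 1 h contrast in the mutant, with 15 and 18.2 TPM at CON and 20 and 21.1 after 1 h of FSK, and fell by 0.87 (SE 0.073, adjusted p = 2.61e-10) after 16 h of Ex-4. Its CON libraries in Med14 S983A were above the 7.3 and 7.29 TPM of WT.

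Secreted ligands and ligand-binding proteins, 13 members, kept most of their calls to 16 h. In Med14 S983A, 12 were higher after 1 h of Ex-4 and 13 after 1 h of FSK, then 9 and 10 at 8 h and 11 and 11 at 16 h, with 0 lower in each. Of all genes, 2.03% and 3.19% were higher at 1 h, 3.21% and 11.6% at 8 h and 4.73% and 12.2% at 16 h. The median log2 difference from CON was 0.88, 1.36 and 1.48 at 1, 8 and 16 h of Ex-4, and 1.32, 3.23 and 2.04 with FSK. The corresponding medians over all 143 members were 1.04, 0.42 and 0.33, and 1.77, 1.11 and 0.61. From 1 h to 8 h in Med14 S983A, 4 secreted members rose and 3 fell with Ex-4, and 8 rose and 4 fell with FSK.

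Fst (NM_012561, rn6 chromosome 2, 46537589 to 46544452) encodes follistatin, which binds and neutralises activin. In WT it had 0.289 and 0.458 TPM at CON, 13.5 and 13.9 after 1 h, 5.63 and 5.75 after 8 h and 0.835 and 0.891 after 16 h of Ex-4, and with FSK 31.9 and 32.3 after 1 h, 108 and 122 after 8 h and 33.9 and 35 after 16 h of FSK. In Med14 S983A it had 1.17 and 0.956 TPM at CON, 24.2 and 24.4 after 1 h, 3.54 and 3.72 after 8 h and 2.7 and 2.18 after 16 h of Ex-4, and with FSK 53.6 and 66.8 after 1 h, 132 and 132 after 8 h and 96.6 and 89.5 after 16 h of FSK. Ex-4 gave a pulse and FSK a climb: the mutant log2 difference went from 3.62 (SE 0.086, adjusted p = 2.98e-21) at 1 h to 0.74 (SE 0.086, adjusted p = 7.27e-08) at 16 h of Ex-4, but from 4.88 (SE 0.086, adjusted p = 1.44e-24) to 6.01 (SE 0.086, adjusted p = 2.75e-26) between 1 h and 8 h of FSK. The genes of 3 neuropeptides that endocrine cells can make rose as well. Tac1, the precursor of substance P, had 8.52 and 7.75 TPM at CON, 108 and 136 after 1 h, 299.7 and 299.7 after 8 h and 349 and 361 after 16 h of FSK in Med14 S983A, a rise of 5.29 (SE 0.093, adjusted p = 1.57e-24) at 16 h. Cck, the cholecystokinin gene, had 24.1 and 25.5 TPM at CON, 53 and 52.2 after 1 h, 236 and 242 after 8 h and 158 and 158 after 16 h of Ex-4 in WT and 33.1 and 38.5 TPM at CON, 66.6 and 63.4 after 1 h, 155 and 157 after 8 h and 122 and 127 after 16 h of Ex-4 in Med14 S983A, where it rose by 0.85 (SE 0.051, adjusted p = 1.22e-12) at 1 h and 2.10 (SE 0.051, adjusted p = 3.16e-20) at 8 h. Cartpt, which encodes the CART peptide and holds a CRE 142 bases before its start, had 10.9 and 11.6 TPM at CON, 39.7 and 38.4 after 1 h, 56.2 and 53.1 after 8 h and 49.2 and 47.4 after 16 h of Ex-4 there and rose by 1.71 (SE 0.071, adjusted p = 4.20e-16) at 1 h and 2.18 at 8 h. For all 3 genes the 8 h libraries lay above those at CON under these treatments.

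Gdf15 and Stc1 had small 1 h differences in WT, 0.69 and 0.67 on the log2 scale with Ex-4, and larger ones later. Gdf15, a stress-induced cytokine of the TGF-β family, had 10.3 and 10.7 TPM at CON, 21 and 22.2 after 1 h, 26 and 27.6 after 8 h and 44.8 and 44.7 after 16 h of FSK in WT and 29.6 and 36.2 TPM at CON, 71 and 71.3 after 1 h, 423 and 394 after 8 h and 316 and 325 after 16 h of FSK in Med14 S983A. The mutant rise was 1.10 (SE 0.093, adjusted p = 3.00e-10) at 1 h and 3.60 (SE 0.093, adjusted p = 1.47e-21) at 8 h, and the genotype difference at 8 h of FSK was 3.88 (SE 0.093, adjusted p = 9.18e-22). Stc1, stanniocalcin, a hormone of calcium and phosphate balance, had 12.4 and 11.8 TPM at CON, 21 and 23.2 after 1 h, 342 and 325 after 8 h and 189 and 182 after 16 h of FSK in Med14 S983A, where it rose by 0.82 (SE 0.066, adjusted p = 1.17e-10) and then 4.67 (SE 0.066, adjusted p = 2.46e-26). Both libraries of every treated group of these genes exceeded both CON libraries of their genotype.

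Hbegf (NM_012945, rn6 chromosome 18, 29330302 to 29340185), an EGF receptor ligand that is shed from the cell surface, was lower in Med14 S983A at every time while its rise there was large. WT had 44.3 and 42.5 TPM at CON, 217 and 218 after 1 h, 73 and 74.2 after 8 h and 41.5 and 38.5 after 16 h of Ex-4, and Med14 S983A 5.64 and 5.2 TPM at CON, 59.8 and 65.3 after 1 h, 16.3 and 14.7 after 8 h and 14.3 and 13.3 after 16 h of Ex-4. The mutant rise was 3.31 (SE 0.062, adjusted p = 3.00e-23) at 1 h, and at 8 h of Ex-4 the genotype difference was −2.18 (SE 0.062, adjusted p = 4.41e-20). At CON the difference, which was not tested, was −2.79. Cxcl1, a neutrophil chemokine, differed between agents. WT had 0.501 and 0.56 TPM at CON, 2.62 and 2.53 after 1 h, 0.918 and 0.572 after 8 h and 0.175 and 0.217 after 16 h of Ex-4, and with FSK 31.4 and 31.1 after 1 h, 1.15 and 1.69 after 8 h and 0.187 and 0.374 after 16 h of FSK. Med14 S983A had 0.156 and 0.312 TPM at CON, 0.373 and 0.403 after 1 h of Ex-4 and 2.35 and 1.8 after 1 h of FSK, a rise of 1.31 (SE 0.11, adjusted p = 5.27e-10) for FSK, while Ex-4 gave 0.17 (SE 0.11, adjusted p = 0.305). Ccn2, a matricellular protein, Lif, a cytokine of the interleukin-6 family, and Bmp2, a TGF-β family ligand, rose in the mutant by 1.81, 0.76 and 0.88 after 1 h of Ex-4. Vegfa, the vascular growth factor, was already at 226 and 224 TPM in Med14 S983A CON and rose by 0.60 (SE 0.044, adjusted p = 7.87e-11) and 0.93 (SE 0.044, adjusted p = 3.30e-15) after 1 h of Ex-4 and of FSK. Wnt4 rose by 0.75 and 0.84 at 1 h and by 2.18 at 8 h of FSK.

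**Figure D2:**
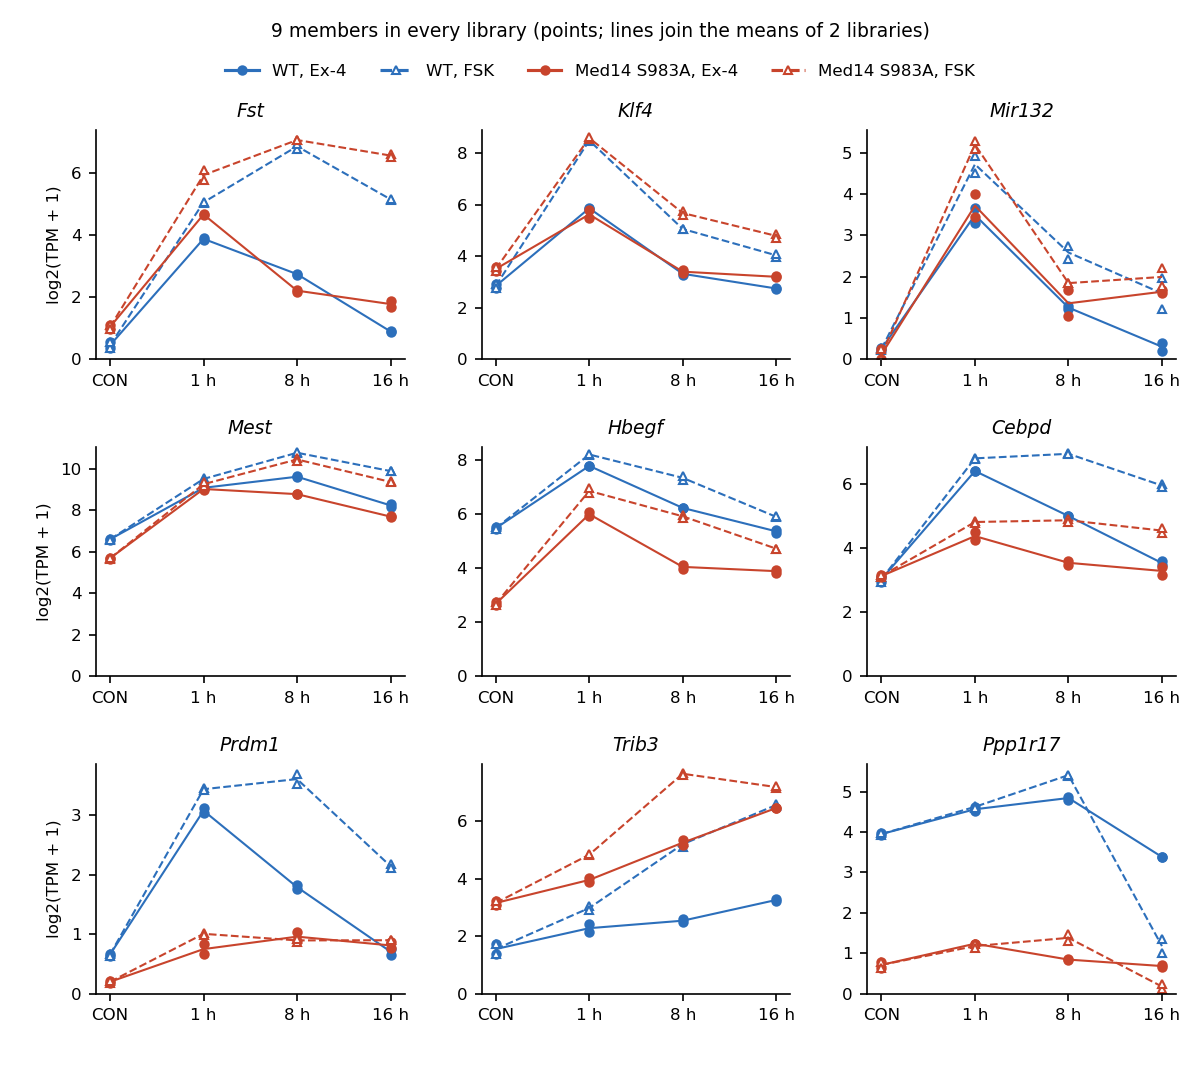
Level (TPM + 1, log axis) of 9 members in every library against hours of treatment, with CON at 0 h. Points are libraries and lines join the means of 2 libraries, for WT and Med14 S983A with Ex-4 and FSK, and Klf4 returns towards CON while Mest, Fst with FSK and Trib3 stay high at 8 and 16 h.

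Of 18 receptors and other surface proteins, 11 were higher in Med14 S983A after 1 h of Ex-4 and 15 after 1 h of FSK. After 8 h 5 and 12 were higher and 0 and 1 lower, beside 3.21% and 11.6% of all genes higher and 3.09% and 34.5% lower. Lrrtm2, a synaptic adhesion protein, had 3.78 and 3.35 TPM at CON and 18.4 and 18.4 after 1 h of Ex-4, a rise of 2.09 (SE 0.076, adjusted p = 2.83e-17). Sstr1 (NM_012719, rn6 chromosome 6, 79254339 to 79258611), a somatostatin receptor that inhibits adenylyl cyclase, went from 1.39 and 1.46 TPM to 17 and 18.2 after 1 h of Ex-4 and 59.2 and 63.1 after 1 h of FSK, by 2.93 (SE 0.073, adjusted p = 6.82e-21) and 4.68 (SE 0.073, adjusted p = 1.29e-25). Gpr3 and Gpr6 are orphan receptors that raise cAMP without a known ligand, and they parted at later times. Gpr3 had 0 and 0.112 TPM at CON, 7.01 and 6.64 after 1 h, 6.24 and 5.63 after 8 h and 2.42 and 2.76 after 16 h of FSK in Med14 S983A, whereas Gpr6 had 12.2 and 13.3 TPM at CON, 56.1 and 49.5 after 1 h, 4.23 and 3.97 after 8 h and 3.01 and 2.77 after 16 h of FSK. Both rose at 1 h, by 2.89 (SE 0.13, adjusted p = 1.16e-15) and 1.97 (SE 0.068, adjusted p = 3.84e-18), and at 8 h Gpr3 was 2.72 above CON, whereas Gpr6 fell by 1.43 (SE 0.068, adjusted p = 3.96e-16).

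Il1r1, the interleukin-1 receptor, had 27 and 23.8 TPM at CON, 82.4 and 68.1 after 1 h, 19.9 and 21.1 after 8 h and 11.1 and 10.2 after 16 h of FSK in WT and 43.9 and 41.4 TPM at CON, 129 and 158 after 1 h, 93.1 and 89 after 8 h and 73.3 and 72.5 after 16 h of FSK in Med14 S983A. The WT libraries at 16 h of FSK were below CON and the mutant ones above it. Kdr, the VEGF receptor, and Gprc5a, a retinoic acid-induced receptor, were close to 0 in untreated mutant cells. Kdr had 0.399 and 0.41 TPM at CON, 2.39 and 2.02 after 1 h, 26.8 and 28.4 after 8 h and 4.52 and 4.83 after 16 h of FSK in WT and 0.081 and 0.043 TPM at CON, 0.243 and 0.232 after 1 h, 1.83 and 2.09 after 8 h and 0.262 and 0.242 after 16 h of FSK in Med14 S983A. Gprc5a had 0.493 and 0.597 TPM at CON, 3.15 and 2.96 after 1 h, 70.9 and 78.5 after 8 h and 41.9 and 42.2 after 16 h of FSK in WT and 0.062 and 0.018 TPM at CON, 0.694 and 0.628 after 1 h, 13.6 and 13.6 after 8 h and 5.31 and 4.18 after 16 h of FSK in Med14 S983A. In the mutant Kdr differed from CON by 0.22 (SE 0.087, adjusted p = 0.0367) at 1 h of FSK and rose by 1.48 (SE 0.087, adjusted p = 3.47e-14) at 8 h, and Gprc5a rose by 0.68 (SE 0.09, adjusted p = 6.34e-07) and 3.81 (SE 0.09, adjusted p = 2.40e-22). Fzd1, a Wnt receptor, was called in Med14 S983A only at 16 h of FSK, at 1.43 (SE 0.076, adjusted p = 6.79e-15), among its 6 comparisons with CON.

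Kinases, GTPases and other regulators of signalling comprised 26 members. In Med14 S983A 21 were higher after 1 h of Ex-4 and 23 after 1 h of FSK, beside 2.03% and 3.19% of all genes. After 8 h 10 and 19 were higher and 1 and 1 lower, beside 3.21% and 11.6% of all genes higher and 3.09% and 34.5% lower. After 16 h 11 and 13 were higher and 1 and 2 lower, beside 4.73% and 12.2% higher and 7.15% and 21.1% lower. Rasd1 (NM_001270954, rn6 chromosome 10, 46330363 to 46332068), a Ras protein induced by dexamethasone, had 22.1 and 23.4 TPM at CON, 366 and 334 after 1 h, 36 and 33.8 after 8 h and 20 and 19.2 after 16 h of FSK in Med14 S983A and rose by 3.88 (SE 0.077, adjusted p = 1.88e-23) at 1 h. Gem and Rem2, which restrain voltage-gated calcium channels, rose by 1.93 (SE 0.082, adjusted p = 3.30e-16) and 2.41 (SE 0.07, adjusted p = 9.06e-20). After 1 h of FSK Gem had 146 and 168 TPM in WT and 37.7 and 42.4 in Med14 S983A, and Rem2 had 93.3 and 95.2 and 25.9 and 28.7. For both, without a test, the mutant libraries were the lower ones, and for Rem2 they were so at CON too, with 33.5 and 36.6 TPM in WT and 4.53 and 4.109 in the mutant.

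Ppp1r15a (GADD34), which directs a phosphatase to the initiation factor eIF2α, had 28.7 and 30.3 TPM at CON, 206 and 209 after 1 h, 197 and 187 after 8 h and 129 and 123 after 16 h of FSK in Med14 S983A, a rise of 2.77 (SE 0.045, adjusted p = 2.43e-25) that was nearly kept at 8 h, at 2.66. The pseudokinase Trib3, an inhibitor of AKT and partner of ATF4, rose later. It had 1.6 and 2.3 TPM at CON, 4.34 and 3.39 after 1 h, 5.01 and 4.59 after 8 h and 8.32 and 8.81 after 16 h of Ex-4 in WT and 7.51 and 8.27 TPM at CON, 15.3 and 13.7 after 1 h, 35.1 and 39.1 after 8 h and 86.5 and 87 after 16 h of Ex-4 in Med14 S983A. The mutant difference from CON was 0.80 (SE 0.094, adjusted p = 3.47e-07), 2.10 and 3.30 at 1, 8 and 16 h, and the genotype difference was 3.20 (SE 0.094, adjusted p = 6.42e-20) at 16 h of Ex-4. Ddit4 (REDD1), an inhibitor of mTORC1, had 26.5 and 27.8 TPM at CON, 136 and 134 after 1 h, 101 and 103 after 8 h and 78.6 and 84.3 after 16 h of FSK there and rose by 2.27 (SE 0.058, adjusted p = 5.17e-21) at 1 h. Among the polo-like kinases, Plk2, with a CRE 66 bases before its start, had 2.32 and 2.46 TPM at CON, 14.8 and 14.8 after 1 h, 44.1 and 44.8 after 8 h and 27.1 and 26 after 16 h of FSK and rose by 2.22 (SE 0.067, adjusted p = 1.53e-19) and 3.74 (SE 0.067, adjusted p = 1.45e-24) at 1 and 8 h. Plk3 rose by 2.46 and 3.02. Both were at their highest mutant level at 8 h of FSK.

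Other signalling members rose at 1 h by amounts between these. After 1 h of FSK in Med14 S983A the log2 differences were 3.12 for the kinase Dyrk3, 2.70 for the scaffold Nedd9, 2.49 for the GTPase Arl5b, 2.19 for the kinase Pim3, 1.90 for Spry1, a feedback inhibitor of receptor tyrosine kinases, and 1.57 for Trib2. At 16 h of FSK Spry1 was 3.51 (SE 0.10, adjusted p = 2.47e-20) above CON, whereas Arl5b, Pim3 and Trib2 were not called, at 0.48, 0.50 and −0.22. Ppp1r17, an inhibitor of protein phosphatases, had 14.2 and 14.8 TPM at CON, 24 and 23.3 after 1 h, 41.2 and 42 after 8 h and 1.54 and 1.01 after 16 h of FSK in WT. Those 16 h libraries were the lowest of the series in WT. In Med14 S983A all of its libraries had at most 1.76 TPM, and it was called at 8 h of FSK alone among the 6 comparisons with CON, at 0.67 (SE 0.089, adjusted p = 1.75e-07).

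Of the 3 microRNA loci and 1 long non-coding RNA, 3 were higher in Med14 S983A after 1 h of Ex-4 and 4 after 1 h of FSK. The fragments counted here overlap the hairpin loci, so hairpin and primary transcript cannot be told apart and the mature microRNA was not measured. Mir132 had 0.211 and 0.173 TPM at CON, 11.8 and 8.94 after 1 h, 1.45 and 1.32 after 8 h and 0.324 and 0.155 after 16 h of Ex-4 in WT and 29.6 and 21.8 after 1 h, 5.66 and 4.42 after 8 h and 2.95 and 1.32 after 16 h of FSK. In Med14 S983A it had 0.181 and 0 TPM at CON, 9.9 and 14.9 after 1 h, 2.2 and 1.05 after 8 h and 2.05 and 2.18 after 16 h of Ex-4 and 33.3 and 38.3 after 1 h, 2.58 and 2.62 after 8 h and 2.43 and 3.64 after 16 h of FSK. It rose in the mutant by 3.60 (SE 0.21, adjusted p = 9.49e-13) after Ex-4 and 5.08 (SE 0.21, adjusted p = 2.72e-16) after FSK. Mir212, which shares the seed AACAGUC and was picked for that after its values were seen, had 0 and 0 TPM in Med14 S983A CON and 7.11 and 5.69 after 1 h of FSK, a rise of 2.88 (SE 0.23, adjusted p = 6.78e-11). In both genotypes the later libraries were lower than those at 1 h.

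Among 10 enzymes and metabolic regulators, 10 were higher in Med14 S983A after 1 h of each agent. Mest (NM_001009617, rn6 chromosome 4, 58052786 to 58063231), an imprinted hydrolase-like protein, had 97 and 94.9 TPM at CON, 753 and 698 after 1 h, 1697 and 1779 after 8 h and 948 and 937 after 16 h of FSK in WT and 50.1 and 50.9 TPM at CON, 569 and 651 after 1 h, 1449 and 1334 after 8 h and 667 and 644 after 16 h of FSK in Med14 S983A. It rose in the mutant by 3.33 (SE 0.053, adjusted p = 7.21e-25) after 1 h of Ex-4 and 4.76 (SE 0.053, adjusted p = 3.66e-28) after 8 h of FSK, and every treated library lay above both CON libraries of its genotype. Tiparp, a mono-ADP-ribosyltransferase, had come most of the way down at 8 h, with 9.78 and 9.04 TPM at CON, 182 and 203 after 1 h, 13.3 and 14.6 after 8 h and 14.6 and 14.6 after 16 h of FSK. At 16 h it was called higher than CON, a call lost without replicate 2 of CON. Its rise was 4.21 (SE 0.072, adjusted p = 8.03e-25) at 1 h. Coq10b, a coenzyme Q carrier, rose by 2.92, and Insig1, which holds the sterol sensor SCAP in the endoplasmic reticulum, by 1.27. All 5 transporters were higher at 1 h of each agent. Slc1a4, a neutral amino acid carrier, rose by 1.97 (SE 0.081, adjusted p = 1.87e-16) after FSK, and Slc26a2, a sulfate carrier, by 2.31 (SE 0.13, adjusted p = 1.89e-13), and against CON the latter fell by 1.03 (SE 0.13, adjusted p = 1.26e-07) at 16 h.

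Of 14 members that act in RNA processing or protein turnover, 12 and 14 were higher at 1 h of Ex-4 and FSK in Med14 S983A. At 8 h 1 and 9 were higher and 0 lower, beside 3.21% and 11.6% of all genes higher and 3.09% and 34.5% lower. Tent5b, a poly(A) polymerase, had 1.51 and 1.22 TPM at CON, 39.6 and 40.3 after 1 h, 3.95 and 3.62 after 8 h and 1.2 and 1.66 after 16 h of FSK, a rise of 4.12 (SE 0.10, adjusted p = 1.58e-21) and the second largest 1 h FSK difference in WT, 5.32. Cwc25, a splicing factor, had 14.9 and 14.7 TPM at CON, 329 and 399 after 1 h, 31.5 and 31.2 after 8 h and 16.2 and 15.9 after 16 h of FSK and rose by 4.52 (SE 0.069, adjusted p = 7.64e-26). Both had come most of the way down at 8 h. The related polymerase Tent5a instead rose by 1.18 at 1 h and 2.58 (SE 0.058, adjusted p = 2.00e-22) at 16 h of FSK. Lsm11, a U7 small nuclear RNP protein for histone transcripts, rose by 0.99 (SE 0.10, adjusted p = 9.86e-09) at 1 h of FSK and against CON fell by 1.28 (SE 0.10, adjusted p = 2.10e-11) at 16 h.

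Regulators of the cell cycle and apoptosis were few, and 2 of 5 were higher at 1 h of each agent. Gadd45b, a stress sensor, had 5.64 and 6.51 TPM at CON, 88.6 and 91.1 after 1 h, 18 and 17.9 after 8 h and 15.5 and 16.5 after 16 h of FSK in Med14 S983A and rose by 3.69 (SE 0.091, adjusted p = 2.07e-21). Bcl2l11 (BIM), a pro-apoptotic BCL2 protein, rose by 1.12 (SE 0.06, adjusted p = 3.70e-14), from 16.1 and 16.2 TPM to 35 and 37.6. Ccnd1, cyclin D1, rose late. It had 0.5 and 0.36 TPM at CON, 4.83 and 3.9 after 1 h, 57.1 and 57.6 after 8 h and 23.3 and 21.8 after 16 h of FSK in WT and 0.071 and 0.086 TPM at CON, 0.532 and 0.594 after 1 h, 54.3 and 52 after 8 h and 19.2 and 19 after 16 h of FSK in Med14 S983A, a difference of 0.54 (SE 0.083, adjusted p = 6.21e-06) at 1 h and 5.65 (SE 0.083, adjusted p = 4.30e-26) at 8 h. Cdkn1b, the inhibitor p27, had 49.9 and 47.4 TPM at CON and 70.7 and 74.1 after 1 h of FSK, under the fold limit at 0.56 (SE 0.038, adjusted p = 4.98e-12). Among 16 structural, trafficking or unassigned members, 12 and 16 were higher at 1 h. LOC689986, a gene without an assigned function in the table, had 49.1 and 46.6 TPM at CON and 692 and 795 after 1 h of FSK, 3.93 higher. Actn2, a sarcomeric actinin, rose by 1.89 and, at 8 h of FSK, by 3.37 (SE 0.14, adjusted p = 1.90e-17).

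The members were followed to 8 and 16 h. In Med14 S983A 51 were higher and 3 lower than CON after 8 h of Ex-4 (35.7% and 2.1%), beside 3.21% and 3.09% of all genes. After 8 h of FSK 101 were higher and 5 lower, beside 11.6% and 34.5%. With each library centred on its median these last counts were 118 and 2, beside 2225 and 2207 of all 10275 genes. After 16 h the members called were 51 higher and 3 lower with Ex-4, beside 4.73% and 7.15%, and 73 higher and 11 lower with FSK, beside 12.2% and 21.1%. Median log2 differences were 0.42 and 1.11 at 8 h and 0.33 and 0.61 at 16 h, for Ex-4 and FSK, where all genes had −0.03, −0.28, −0.06 and −0.10. More members were called above CON with FSK than with Ex-4 at both times. In WT, given without a test, 69 members were at least 1.5-fold above CON after 8 h of Ex-4 and 3 as far below, beside 3.61% and 6% of all genes. The other WT counts were 100 and 4 after 8 h of FSK (8.77% and 34.8%), 35 and 3 after 16 h of Ex-4 (3.54% and 8.3%) and 81 and 9 after 16 h of FSK (10.3% and 24.2%).

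From 1 h to 8 h in Med14 S983A, 80 members fell and 8 rose with Ex-4, beside 3.24% and 2.83% of all genes, and 79 fell and 28 rose with FSK, beside 28.6% and 14.1%. The transcription regulators, 32 of the 143 members, accounted for 21 of the 80 falls with Ex-4 and 21 of the 79 with FSK. Both portions are near their share of the members. The group with the highest mean in Med14 S983A was the 1 h group for 112 members with Ex-4 and 95 with FSK, the 8 h group for 11 and 37, and the 16 h group for 18 and 10. For 2 members with Ex-4 and 1 with FSK it was CON. Early pulses and later plateaus thus both occurred among genes chosen at 1 h.

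**Figure D3:**
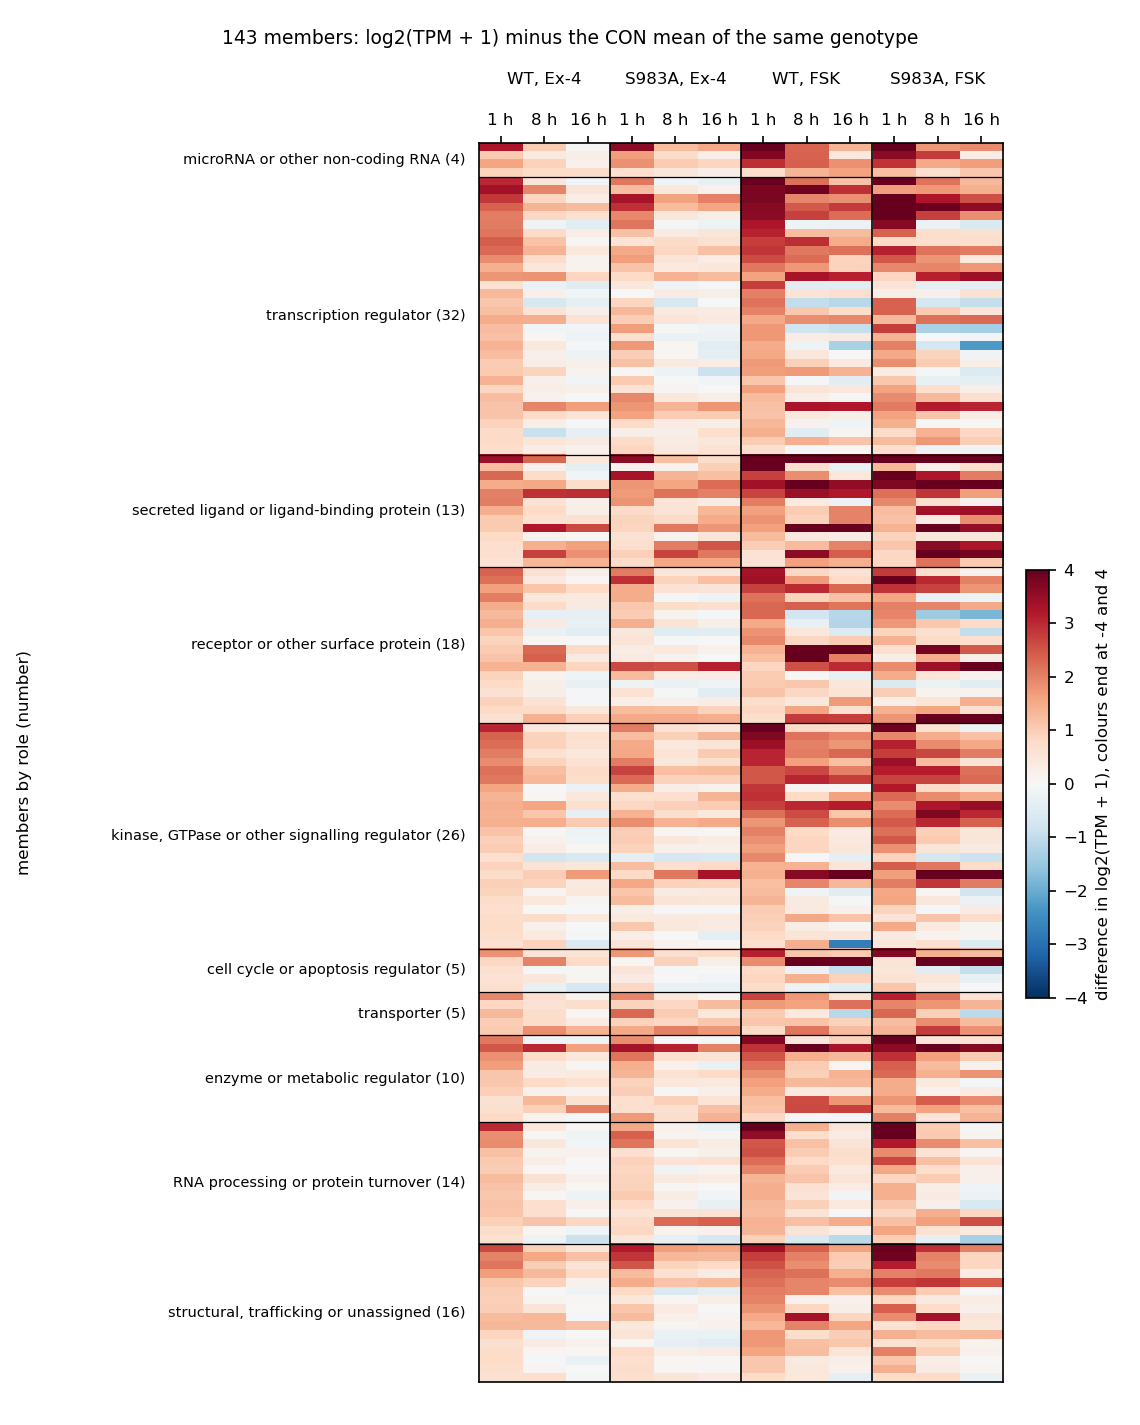
Difference in mean log2(TPM + 1) from the CON mean of the same genotype for the 143 members (lines, in 10 groups by role) in the 12 treated groups (columns), with 2 libraries per group. The colour scale runs from −4 to 4, and red prevails at 1 h in both genotypes and still fills most of the secreted group at 16 h.

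In WT the 16 h libraries were tested against those at 8 h. With Ex-4, 31 members were lower and 2 higher at 16 h, beside 3.49% and 2.08% of all genes. The largest falls were in Kdr, at −2.04 (SE 0.087, adjusted p = 2.79e-15), Fst, at −1.84 (SE 0.086, adjusted p = 1.42e-14), and Gprc5a, at −1.53 (SE 0.09, adjusted p = 7.86e-13). The 2 that rose were Insig1, by 1.06 (SE 0.043, adjusted p = 1.18e-15), and Trib3, by 0.72 (SE 0.094, adjusted p = 6.93e-07). With FSK, 49 members were lower and 7 higher, beside 3.62% and 14% of all genes. Ppp1r17 fell by 4.23 (SE 0.089, adjusted p = 9.91e-22), Actn2 dropped by 2.49 and Kdr dropped by 2.33, while Trib3 rose by 1.36 (SE 0.094, adjusted p = 3.63e-12), Fzd1 by 1.27 and Bmp2 by 1.09. With scaling on the ERCC counts, which shifted the median over all genes by 0.35, the FSK counts were 24 lower and 17 higher. Of all 10275 genes, 113 were lower and 3833 higher with that scaling.

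FSK gave higher levels of many members than Ex-4 in the same cells. In Med14 S983A at 1 h, 73 members were lower with Ex-4 than with FSK and 1 was higher, beside 1.58% and 1.45% of all genes. In WT the counts were 77 and 3 at 8 h, beside 4.77% and 23.3%, and 71 and 9 at 16 h, beside 7.29% and 11.4%. The median log2 difference of the members was −0.61 at 1 h in Med14 S983A, −0.67 at 8 h and −0.58 at 16 h in WT. At 8 h in WT the gap was widest for Fst, at −4.109 (SE 0.086, adjusted p = 5.28e-22), Ccnd1, at −3.36 (SE 0.083, adjusted p = 7.87e-21), and Gprc5a, at −3.32 (SE 0.09, adjusted p = 3.12e-20). At 16 h Ppp1r17 went the other way, with 9.49 and 9.39 TPM after Ex-4 and 1.54 and 1.01 after FSK, a difference of 2.21 (SE 0.089, adjusted p = 7.40e-17), followed by Barhl1, at 1.22, and Slc26a2, at 1.18. The agents act at different steps and were given at 1 dose each, so these are levels side by side and not potencies.

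**Figure D4:**
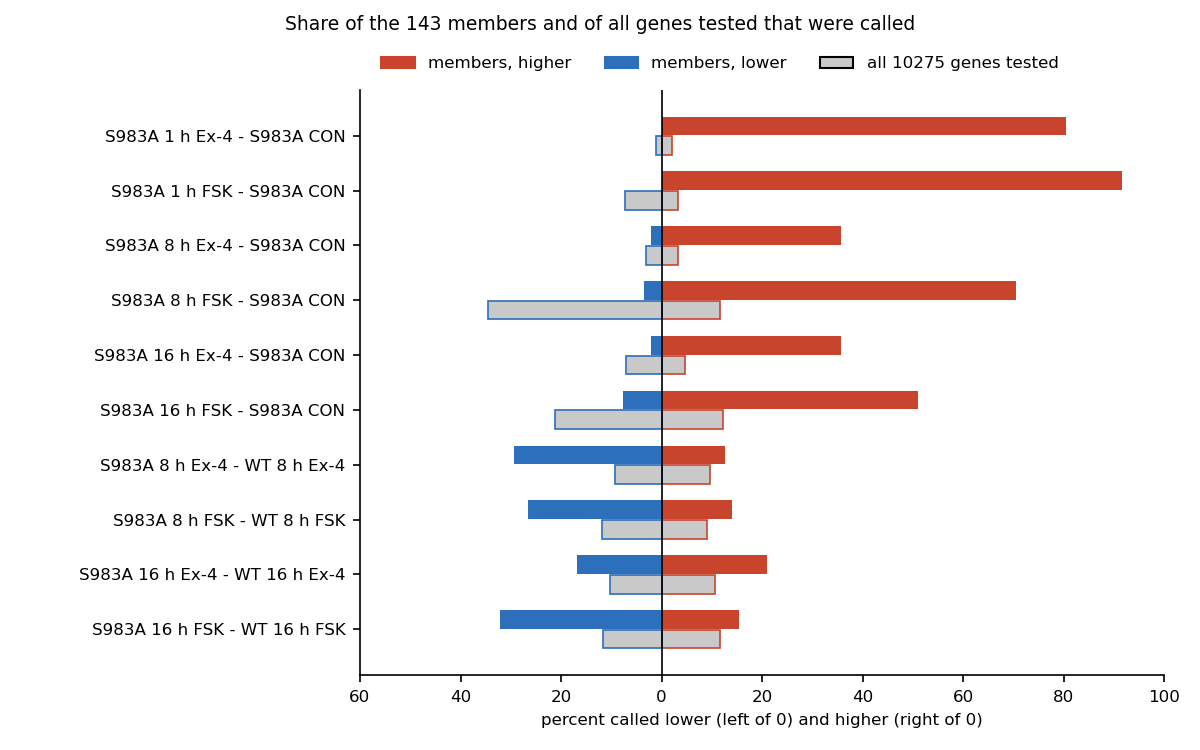
Percent of the 143 members and percent of all 10275 genes called higher and lower by limma in 10 comparisons. The members' bars for higher calls reach 80.4% and 91.6% after 1 h in Med14 S983A, where all genes reach 2.03% and 3.19%.

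The genotypes were compared under the same treatment, at 8 and 16 h, with clone and genotype not separable. With Ex-4, 42 members were lower and 18 higher in Med14 S983A than in WT at 8 h, beside 9.16% and 9.66% of all genes, and 24 were lower and 30 higher at 16 h, beside 10.2% and 10.6%. With FSK, 38 were lower and 20 higher at 8 h, beside 11.9% and 9.07%, and 46 were lower and 22 higher at 16 h, beside 11.7% and 11.6%. The rule asked for a rise in WT and not in Med14 S983A, which can favour lower calls while that rise lasts. Nothing is read from an excess of lower calls. ERCC scaling changed the balance at 8 h of FSK, to 31 lower and 27 higher, and turned it at 16 h of Ex-4, to 38 lower and 21 higher, with a shift of −0.23 in the median over all genes. Of all 10275 genes, this scaling called 941 lower and 1256 higher at 8 h of FSK, and 1827 and 664 at 16 h of Ex-4. Transcription regulators are 32 of the 143 members. They held 11 of the 42 lower calls at 8 h and 6 of the 24 at 16 h of Ex-4. With FSK they held 8 of the 38 at 8 h and 11 of the 46 at 16 h. These portions are close to their share of the members.

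Some members differed in all 4 of these genotype comparisons, which share no library with each other. The 19 that were lower in Med14 S983A each time were Hbegf, Gadd45b, Diras2, Gpr6, Ypel4, Neurod2, Ldhb, Barhl1, Actn2, Ccdc184, Neurod4, Gprc5a, Nefl, Kdr, Rem2, Slc26a2, Foxa3, Cdkn1b and Ppp1r17, where 5.4% of all genes were so. The 11 that were higher were Lrrtm2, Ddit4, Ackr3, Il1r1, RGD1564664, Uncx, Ciart, Trib3, Mfsd2a, Gdf15 and Wnt4, where 4.84% of all genes were so. Diras2, Ldhb, Neurod4, Foxa3, Ackr3, RGD1564664, Uncx and Mfsd2a are named for this count after their values were seen. Ccdc184, a coiled-coil protein, was the furthest apart. It had 10.3 and 11.8 TPM at CON, 30.4 and 28.3 after 1 h, 28.9 and 28.7 after 8 h and 25.5 and 27.1 after 16 h of Ex-4 in WT and 0.052 and 0.077 TPM at CON, 0.415 and 0.433 after 1 h, 0.145 and 0.172 after 8 h and 0.159 and 0.239 after 16 h of Ex-4 in Med14 S983A, a genotype difference of −4.68 (SE 0.097, adjusted p = 4.78e-23) at 8 h. At CON, without a test, 27 members were at least 1.5-fold lower in Med14 S983A and 18 higher, beside 11.2% and 8.29% of all genes, and Ccdc184 was −3.49 and Trib3 1.60 there. After 1 h, also without a test, 45 were lower and 19 higher with Ex-4, beside 11% and 8.74% of all genes, and 36 and 22 with FSK, beside 11.4% and 8.69%. The WT libraries of these 1 h comparisons chose the members for being high, so nothing is read from the lower counts.

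The change from 8 to 16 h was then compared between the genotypes with an interaction term. With Ex-4, 32 members had a higher change in Med14 S983A than in WT and 0 a lower one, beside 1.69% and 1% of all genes, and the members' median was 0.29 where that of all genes was 0.02. The largest were Kdr, Tac1 and Fst. Since the rule asked for a rise in WT alone, it can favour a larger later decline in WT. Fst fell from 5.63 and 5.75 TPM at 8 h to 0.835 and 0.891 at 16 h in WT and went from 3.54 and 3.72 to 2.7 and 2.18 in Med14 S983A, an interaction of 1.41 (SE 0.12, adjusted p = 8.70e-09). Tac1 went from 27.6 and 22.9 to 14.2 and 13.1 in WT and from 25.5 and 27 to 45 and 39.4 in Med14 S983A, in opposite directions, with 1.501 (SE 0.13, adjusted p = 1.11e-08). Kdr, at 1.88 (SE 0.12, adjusted p = 1.19e-10), fell in WT from 6.19 and 6.64 TPM to 0.796 and 0.82, while the mutant had 0.119 and 0.246 and then 0.038 and 0.075. The mutant level fell too, and log2(TPM + 1) understates such a change near 0, so this interaction can exceed that on ratios of TPM. The count depended on scaling: on the ERCC counts 17 members had a higher and 1 a lower change, and the median over all genes was −0.27. Of all 10275 genes, 65 had a higher and 766 a lower change with that scaling.

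With FSK 14 members had a higher and 14 a lower change in Med14 S983A, beside 5.42% and 3.67% of all genes. With ERCC scaling 11 had a higher and 23 a lower change, beside 447 and 520 of all 10275 genes. Ppp1r17, at 3.03 (SE 0.13, adjusted p = 1.39e-14), Prdm1, at 1.47 (SE 0.12, adjusted p = 4.04e-10), and Cxcl1, at 1.41 (SE 0.16, adjusted p = 1.68e-07), led the higher ones. All 3 were lower in the mutant than in WT at 8 h. Ppp1r17 fell in the mutant too, at a level where log2(TPM + 1) understates such a change. Its interaction can thus exceed that on ratios of TPM. Prdm1 hardly changed in the mutant and Cxcl1 rose there, so for these genes the scale can make the interaction smaller than that on ratios. The size of this effect in the 3 values was not tested. Trib3 led the lower ones at −1.83 (SE 0.13, adjusted p = 1.22e-10). It rose from 33.4 and 38.1 to 90.9 and 95.9 TPM in WT and went down from 204 and 195 to 142 and 146 in Med14 S983A. Ddit4, at −1.14 (SE 0.083, adjusted p = 1.15e-10), and Ciart, a circadian repressor, at −1.12 (SE 0.13, adjusted p = 1.84e-07), had the same pattern.

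**Figure D5:**
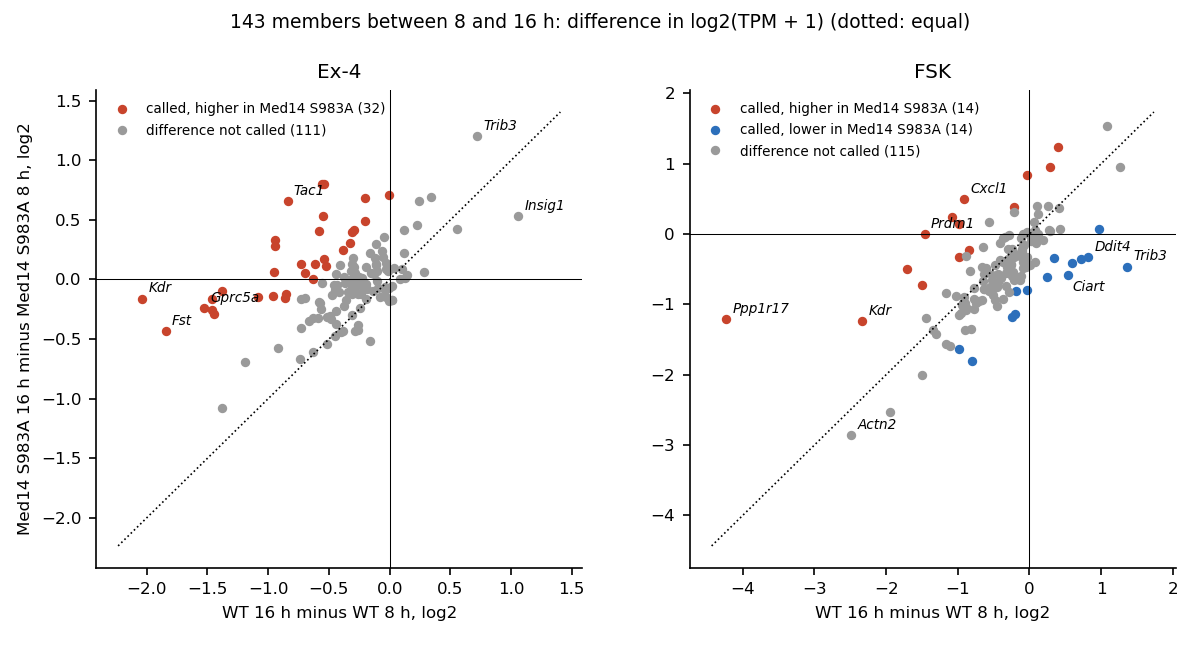
Change in log2(TPM + 1) from 8 to 16 h in WT (horizontal axis) and Med14 S983A (vertical axis) for the 143 members, with Ex-4 (left) and FSK (right). Coloured points are members whose change differed between genotypes by limma (32 with Ex-4, 28 with FSK), and with Ex-4 every one of the 32 lies above the line of equal change.

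Other genes of the same functional classes were read from lists of early response genes compiled from general knowledge, with results of these data already known. List genes that were not members had missed the WT 1 h rule. A scarcity of rises among them was thus partly set by that rule, and nothing is read from it. For comparison, 2.03% of all genes tested rose and 1% fell after 1 h of Ex-4 in Med14 S983A. After 1 h of FSK these shares were 3.19% and 7.2%. Of 49 measured early transcription regulators, 14 were members. Among the 35 others, 0 were higher and 5 lower after 1 h of Ex-4 in Med14 S983A, and 9 were higher and 12 lower after 1 h of FSK. The 5 were Klf6, Myc, Irf1, Cited4 and Arid5b. Klf6, a relative of Klf4, went from a mean of 24.6 TPM at CON to 8.06 after Ex-4 and 3.21 after FSK, falling by 1.497 (SE 0.064, adjusted p = 7.91e-16) and 2.61, and Myc from 56.0 to 13.9 and 5.43. Of 41 early signalling and survival regulators, 14 were members. Of the 27 others, 3 (Spry4, Errfi1 and Cdkn1a) were higher and 1 (Sgk1) lower after Ex-4, and 7 and 6 after FSK. Of 27 secreted ligands and proteases, 11 were members, and of the 16 others 2 (Vgf and Ccn1) were higher and 0 lower after Ex-4, and 4 and 1 after FSK. Of 10 measured NF-κB targets 0 were called after Ex-4 and 1, a member, was higher after FSK, and of 10 cytoskeletal targets of SRF 2 and 3 were higher and 0 lower.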

How the data were processed

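RNA-seq was done in 28 libraries, and the labels gave group and replicate. The authors aligned reads to rn6 with STAR 2.5.3a and made TPM with HOMER 4.11.1. The deposited TPM entered unscaled, with the transcript of highest mean TPM for each of 17455 symbols. The other deposited file holds raw counts of the 92 ERCC sequences. The library kit was directional, and the strand option used in counting is not given in the sources used here, so overlapping antisense reads cannot be told apart.

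Log2(TPM + 1) of 10275 genes (mean at least 1 TPM) was fitted with limma 3.58.1 in R 4.3.3 (eBayes with trend, 14 group means). Tests were two-sided, and genes were called at a Benjamini-Hochberg adjusted p under 0.05 over all genes and a fold above 1.5. A fold on this scale understates changes of genes at low level. The study's method, DESeq2 1.24.0 on gene counts, was replaced because the genes were used as TPM. Alternatives were other pseudocounts, filters, scalings and fits, each library left out, and edgeR 4.0.16 and DESeq2 1.42.0 on fragments recovered from the TPM, lengths and ERCC counts (of 135800 values below 1000 reads, 100.0% came out whole to within 0.05 reads). The fit was tested on simulated data. Replicates of a group had a Pearson r over genes of 0.998 to 0.999, and intervals of counts were not used.

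The rule for named genes took 77 members, of which 1, like some markers, is not reported here: the 15 with the largest mean WT 1 h difference, those on the gene lists, the 3 largest called rises and falls of each test, those nearest the threshold, the extremes of mean TPM and of WT at 16 h of Ex-4, and the top 3 of each of the roles receptor and enzyme. The members and lists were chosen with earlier results of these data known.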

Additional observations from a re-analysis of the deposited data

Results flagged for a closer look

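The change from 8 to 16 h differed between the genotypes by an interaction term for 32 members with Ex-4. The log2 values that led were 1.88 for Kdr, 1.501 for Tac1 and 1.41 for Fst, with adjusted p-values of 1.19e-10, 1.11e-08 and 8.70e-09 by limma. All 32 had the higher change in Med14 S983A, which a rule that asked for a rise in WT alone can favour. Kdr was near 0 TPM there, where log2(TPM + 1) understates the change within the mutant.

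With FSK the interaction was called for 28 members. It was 3.03 for Ppp1r17, 1.47 for Prdm1 and 1.41 for Cxcl1, and −1.83 for Trib3, −1.14 for Ddit4 and −1.12 for Ciart. Adjusted p-values ran from 1.39e-14 for Ppp1r17 to 1.84e-07 for Ciart. Ppp1r17, Prdm1 and Cxcl1 were low in Med14 S983A. There log2(TPM + 1) understates the fall of Ppp1r17, whereas Prdm1 hardly changed and Cxcl1 rose. For Trib3, Ddit4 and Ciart both WT libraries were higher at 16 h than at 8 h and both Med14 S983A libraries lower.

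Il1r1 moved in opposite directions against CON of the same genotype at 16 h of FSK. It was 0.76 from CON in Med14 S983A and −1.18 in WT, with all libraries of each genotype on that side. The difference between these values was not tested, since the WT CON libraries chose the members.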

How the results depend on the processing

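Of 255 alternative counts, 253 were within 1.5 times the reported count. The exceptions were the Ex-4 interaction, with 18 members in place of 32 with ERCC scaling and 18 with DESeq2 on ERCC size factors. The number of members was 89 at a threshold of 2-fold in place of 143, 183 with a pseudocount of 0.1, 173 with each library centred on its median and 140 with ERCC scaling, and 55 promoters held the half-site where 14 held the full CRE. With the replicate number as a block, the counts matched those without it in each of the 19 tests, for example 115 at 1 h of Ex-4 and 131 at 1 h of FSK in Med14 S983A. Over 91 pairs of groups, deviations of same-numbered libraries correlated at −0.280 to 0.283 (median 0.003), 17 above 0.1 and 11 below −0.1, so the numbers were not taken as pairs.

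Leaving out 1 library at a time gave 114 to 116 and 128 to 133 members for those tests and 28 to 35 for the Ex-4 interaction. For the named genes, 127 values were checked, among them the largest called rises and falls of each test. Of their 508 alternative values, 496 kept direction and call and 12 lost the call, in Pim1, Atoh7, Ypel4, Neurod2, Il1r1 and Barhl1. Calls of named genes outside these 127 could also depend on 1 library. Between the genotypes, examples are Gadd45b at 8 h of Ex-4 and Ddit4 and Wnt4 at 16 h of FSK. With each library centred, Neurod2, Il1r1 and Barhl1 at 8 h of Ex-4 against FSK in WT were 0.44, 0.38 and 0.36 and no longer passed the fold limit. ERCC spike-in was added to RNA and not to cells, so no scaling here gives RNA per cell. Which scaling is right was not tested.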
